A study of Homo sapiens with 15 samples.

Results

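The human mitochondrial genome carries 37 genes, and all 37 had a row in the deposited table of 60605 genes. They were taken by 1 rule, that the table places the gene on the mitochondrial chromosome. Their start, end and strand were identical to those of the GENCODE release 44 annotation for all 37, on a chromosome of 16569 bases (hg38). 13 are protein-coding genes, 2 are ribosomal RNA genes and 22 are transfer RNA genes. 19 of the 37 had a count above 0 in any library, and 18 reached an FPKM of 1 in 1 library or more (FPKM is a count scaled by gene length and library total). These 18 were all 13 protein-coding genes, both ribosomal RNA genes and 3 of the 22 transfer RNA genes. Although the rule itself is a position, the set was chosen by its measured share of the library counts on Day 3 and Day 10, which was known, so the levels below are a description and carry no test.

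Mitochondrial DNA is a small circle that is read on both strands into long precursor RNAs, from which the transfer RNAs are cut out, leaving messenger and ribosomal RNAs between them. Its protein-coding genes all encode membrane subunits of the respiratory chain and of the ATP synthase, while the other subunits of the same complexes, and all factors that copy, transcribe and process mitochondrial DNA and RNA, are encoded in the nucleus. Heart muscle cells are rich in mitochondria and rely on oxidative phosphorylation for contraction.

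The 15 bulk RNA-seq libraries came from H1, an established human embryonic stem cell line, of wild-type genotype. To induce mesendoderm progenitors, cells received CHIR99021, an activator of WNT signalling, on Day 0, followed by insulin on Day 1. Day 0, Day 1 and Day 2 have a single common library each. Afterwards there were 3 arms. NP-ctrl was not passaged and got no further inducer. NP-IWP2 was not passaged and was given IWP2, an inhibitor of WNT secretion, for a limited time from Day 2. The passaged arm was dissociated with EDTA on Day 2, replated at lower density, and given no WNT inhibitor. The paper states that a ROCK inhibitor was added in its differentiation experiments after its tests of survival. Dissociation, lower density and any effect of this inhibitor cannot be told apart here. Each arm had 1 library on each of Day 3, Day 5, Day 7 and Day 10, so there are no replicates and no difference between arms could be tested against the spread between cultures. Intervals below are 95% intervals that cover counting error alone, and PCR duplicates can make the real error wider. Where 3 values of a day follow each other without names, their order is NP-ctrl, NP-IWP2 and passaged.

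Total counts per library ranged from 13254723 to 20250115 with a median of 15269132. The 12 cardiomyocyte markers, sarcomere and calcium-handling genes, summed to 51.8 CPM (counts scaled by the library total alone) on Day 2 and to 25462 CPM in the passaged arm on Day 10.

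The mitochondrial share of all counts was lowest in the passaged arm on Day 3 and highest in the passaged arm on Day 10. The 3 common libraries of Day 0, Day 1 and Day 2 had 5.07%, 5.65% and 4.63%. On Day 3 NP-ctrl had 4.80% (4.79 to 4.81), NP-IWP2 4.66% (4.65 to 4.67) and the passaged arm 1.53% (1.52 to 1.53). The 3 arms lay closer on Day 5, at 4.40%, 4.58% and 5.05%, and stood at 3.71%, 5.41% and 6.14% on Day 7. On Day 10 NP-ctrl had 3.72% (3.71 to 3.73), NP-IWP2 6.02% and the passaged arm 10.3% (10.29 to 10.32). The passaged arm thus went from below both other arms on Day 3 to above both from Day 5 on. In bulk RNA, fewer cells with many mitochondria and less mitochondrial RNA per cell cannot be told apart.

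The protein-coding genes set most of this share, with 10289719 of the 11875000 mitochondrial counts over all libraries. They held 3.98%, 3.90% and 1.27% of the library counts on Day 3 and 3.21%, 5.00% and 8.73% on Day 10. The ribosomal RNA genes moved from 0.820%, 0.757% and 0.259% on Day 3 to 0.499%, 1.00% and 1.57% on Day 10. The transfer RNA genes never held more than 0.0129% of a library, the value of NP-IWP2 on Day 10. They were also the class in which the passaged library was not the highest on Day 10, with 0.00868% against 0.00516% in NP-ctrl.

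**Figure D1:**
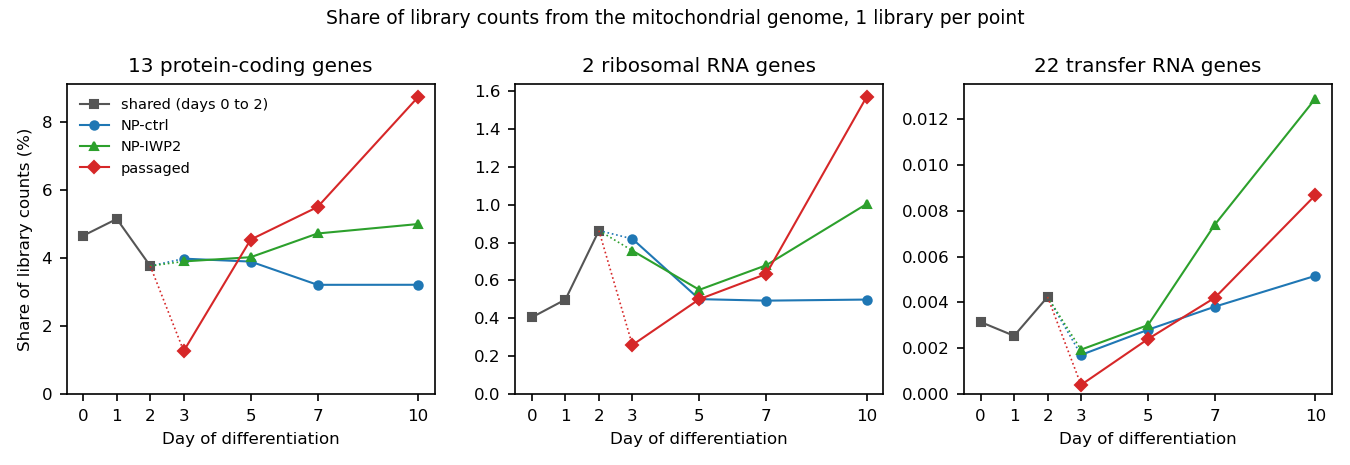
Share of library counts (percent, from 0) held by the 13 protein-coding, 2 ribosomal RNA and 22 transfer RNA genes of the mitochondrial genome against the day of differentiation, with 1 library per point, dotted lines joining Day 2 to each arm and no error bars because the counting intervals are narrow at this scale for the protein-coding and ribosomal RNA genes. The passaged library lies lowest in all 3 classes on Day 3 and highest on Day 10 for protein-coding (8.73%) and ribosomal RNA genes (1.57%), whereas NP-IWP2 is highest for transfer RNA genes (0.0129%).

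The common shift between libraries was taken as the median log2 ratio of CPM over the 13 protein-coding genes. Between the passaged arm and NP-ctrl it was -1.58 on Day 3 (2.99-fold lower), 0.28 and 0.93 on the next days sampled, and 1.50 on Day 10 (2.83-fold higher). Between NP-IWP2 and NP-ctrl it was -0.02, 0.03, 0.51 and 0.59 on the same days. Between the passaged arm and NP-IWP2 it was -1.48, 0.16, 0.35 and 0.87. The comparisons against NP-ctrl share its libraries and are not independent of each other. Scaling with the TMM factors of edgeR moved every gene by -0.12 on Day 3 and by 0.24 on Day 10 between the passaged arm and NP-ctrl, and the common shift then was -1.70 and 1.74. Most members had their extremes in the same libraries: 11 of 13 protein-coding genes had their lowest CPM in the passaged arm on Day 3, and 13 of 13 had their highest CPM in the passaged arm on Day 10.

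On Day 3, 10 of 13 protein-coding genes were lower in the passaged arm than in NP-ctrl by at least 1 on log2(FPKM + 1), and none was higher by as much. Of the 21206 genes that reached an FPKM of 1 in any library, 3.48% were lower by this much and 5.02% higher. The remaining 3 genes were MT-ATP8, MT-ND4L and MT-ND5. Against NP-IWP2, 10 of 13 were again lower by at least 1, where 5.05% of all genes were (3.65% were higher). Between NP-IWP2 and NP-ctrl on Day 3, 0 of 13 passed this size, where 3.29% of all genes were higher and 0.858% lower.

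A gene was counted as leaving the common shift where its own log2 ratio lay at least 0.5 from the shift and its 95% interval did not contain the shift. It was judged only with 30 counts or more in 1 of the libraries. On Day 3, 8 of the 16 judged mitochondrial genes left the shift between the passaged arm and NP-ctrl, 4 above it and 4 below. Among all 14476 genes with at least 30 counts, 40.5% lay this far from the median of all genes in the same pair, so genes that far apart were common in these libraries. On Day 10, 1 of 17 judged mitochondrial genes left the shift between the same arms, where 50.7% of all genes lay that far from their median. Between NP-IWP2 and NP-ctrl, 1 of 16 left it on Day 3 (19.8% of all genes) and 1 of 16 on Day 10 (38% of all genes). Between the passaged arm and NP-IWP2, 7 of 16 left it on Day 3 (36% of all genes) and 4 of 17 on Day 10 (40% of all genes). The members just past the threshold were MT-CO3 on Day 3, at -0.52 from the shift between the passaged arm and NP-ctrl, and MT-ND3 on Day 10, at 0.54 between the passaged arm and NP-IWP2. Just short of it, between NP-IWP2 and NP-ctrl, lay MT-ATP8 at 0.49 and MT-ND5 at 0.48 on Day 3. MT-ND4L, the 1 gene that left the shift of this pair on Day 3, lay at 0.71. On Day 10 MT-RNR2 at 0.49 and MT-ATP8 at -0.48 were just short in the same pair.

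**Figure D2:**
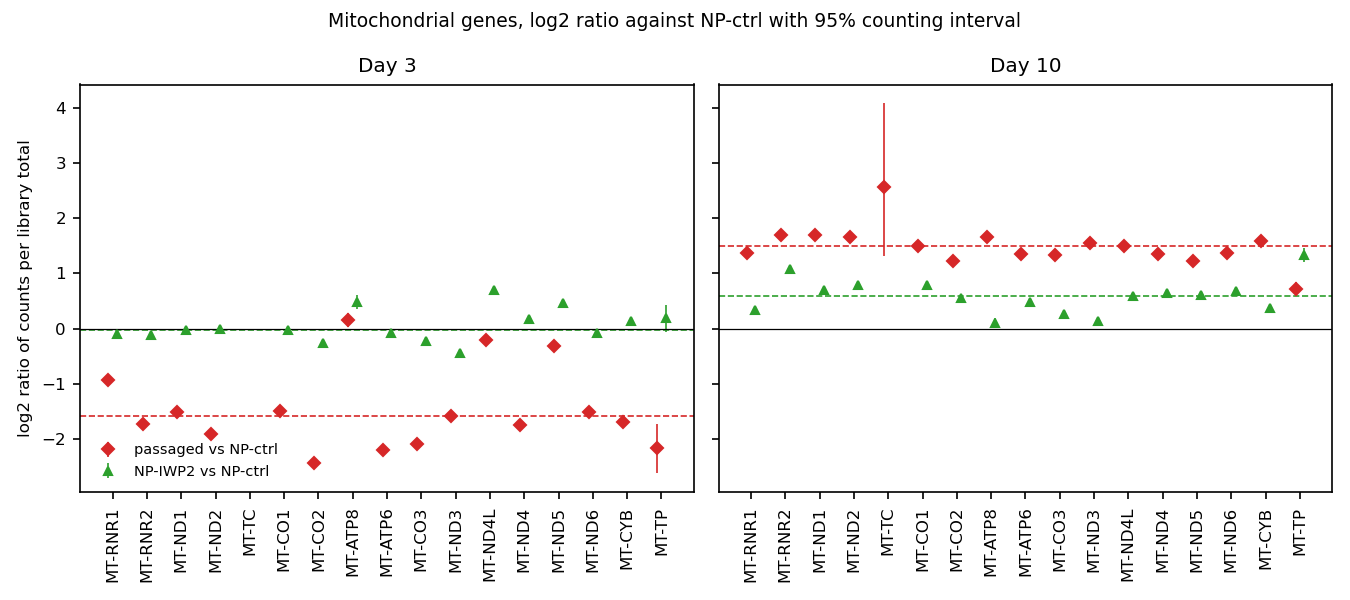
The log2 ratio against NP-ctrl of each judged mitochondrial gene, in genome order, on Day 3 (left) and Day 10 (right), for the passaged arm (red diamonds) and NP-IWP2 (green triangles), with bars for the 95% counting interval and dashed lines for the common shift of each arm. On Day 3 the red points spread from -2.44 (MT-CO2) to 0.15 (MT-ATP8), while on Day 10 the protein-coding genes lie between 1.23 and 1.69 (MT-TC was judged only on Day 10, for the passaged arm).

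Complex I, the entry point of electrons from NADH, has 7 mitochondrially encoded subunits. On Day 3, MT-ND1, which lies at the quinone-binding end of the complex, was at 1419, 1390 and 499 CPM. MT-ND2 was at 1256, 1254 and 334 CPM, and MT-ND4, like MT-ND2 a proton-pumping subunit, at 4057, 4598 and 1205 CPM. MT-ND3 was at 806, 594 and 269 CPM, and its ratio of 0.334 between the passaged arm and NP-ctrl was itself the median of the 13. All these were lowest in the passaged library, by 2.84-fold (MT-ND1) to 3.76-fold (MT-ND2) against NP-ctrl. MT-ND6 (chrM:14149-14673), the 1 protein-coding gene on the minus strand, was at 683, 647 and 238 CPM, a fall of 2.87-fold, and lay 0.06 from the common shift, which is the median of all 13, itself included. MT-ND6 never left the shift in the 12 comparisons of arms, with deviations from -0.18 to 0.09. Without a statement that counting used strand, reads of the plus strand over MT-ND6 cannot be told apart from its own. MT-ND4L and MT-ND5, the other 2 subunits, behaved differently and are described with MT-ATP8.

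Complex III, which passes electrons on to cytochrome c, has 1 mitochondrial gene. MT-CYB (chrM:14747-15887), its cytochrome b, was at 1727, 1891 and 531 CPM on Day 3. Its fall of 3.25-fold against NP-ctrl lay 0.12 below the common shift. On Day 10 MT-CYB was at 2086, 2696 and 6292 CPM in the same order, 3.02-fold higher in the passaged arm than in NP-ctrl (2.98 to 3.06).

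Complex IV, the terminal oxidase, has its 3 catalytic core subunits in the mitochondrial genome, and 2 of them lay below the common shift on Day 3. MT-CO2 (chrM:7586-8269), which accepts electrons from cytochrome c, was at 4804, 4016 and 884 CPM. Its ratio between the passaged arm and NP-ctrl was 0.184 (0.180 to 0.188), the lowest of the 13, and lay 0.86 below the shift. MT-CO3 (chrM:9207-9990) was at 5760, 4915 and 1342 CPM, 4.29-fold lower in the passaged arm. MT-CO1 (chrM:5904-7445), which holds the oxygen-reducing centre, was at 15426, 15223 and 5445 CPM, 2.83-fold lower and within 0.08 of the shift. On Day 10 MT-CO2 was 2.35-fold higher in the passaged arm than in NP-ctrl (2.32 to 2.37), level with MT-ND5 (2.35, 2.32 to 2.38) at the low end of the 13, and lay 0.27 below the shift.

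Complex V, the ATP synthase, has 2 mitochondrial genes, MT-ATP6 and MT-ATP8, which encode membrane subunits and sit on 1 shared message with overlapping reading frames. On Day 3 they moved apart. MT-ATP6 (chrM:8527-9207), part of the proton channel, was at 2113, 2005 and 457 CPM, a ratio of 0.216 (0.210 to 0.222) between the passaged arm and NP-ctrl. MT-ATP8 was at 59.3, 82.3 and 66.0 CPM, a ratio of 1.11 (1.02 to 1.22). It was the only protein-coding gene with a ratio above 1 between the passaged arm and NP-ctrl on Day 3, and on log2 it lay 1.73 above the shift.

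On Day 10 all 13 protein-coding genes were higher in the passaged arm than in NP-ctrl by at least 1 on log2(FPKM + 1), where 5.67% of all genes tested were higher and 11.7% lower. Their ratios ran from 2.35 (MT-CO2) to 3.23 (MT-ND1, 3.18 to 3.28), and the SD of the 13 log2 ratios was 0.16 against 0.81 on Day 3. None of the 13 left the common shift. Against NP-IWP2, 4 of 13 were higher by at least 1 on Day 10, where 3.07% of all genes were higher and 7.01% lower, and with the TMM factors this count was 8. The 4 were MT-ATP8 with a ratio of 2.94 (2.81 to 3.09), MT-ND3 with 2.65 (2.59 to 2.72), MT-CYB with 2.33 (2.31 to 2.36) and MT-CO3 with 2.11 (2.09 to 2.13). MT-ATP8 and MT-ND3 also left the common shift of this pair, by 0.69 and 0.54, and MT-ND3 no longer did once counts of nuclear copies were added. Between NP-IWP2 and NP-ctrl 0 of 13 passed 1 on Day 10 (3.71% of all genes were higher and 5.64% lower), although all 13 were higher, with log2 ratios from 0.11 (MT-ATP8) to 0.79 (MT-ND2).

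MT-ATP8, MT-ND4L and MT-ND5 were the protein-coding genes that left the common shift most often, in 8, 5 and 3 of the 12 comparisons of arms, while MT-ND1, MT-ND2, MT-ND4, MT-ND6, MT-CO1 and MT-CYB left it in none. On Day 5 and Day 7, not given above, 33.7% and 42.7% of all genes lay as far from their median when the passaged arm was set against NP-ctrl, 12.6% and 31.6% for NP-IWP2 against NP-ctrl, and 32.4% and 27% between the passaged arm and NP-IWP2. MT-ATP8 and MT-ND4L are the shortest protein-coding genes of the genome and each overlaps the gene that follows it. They are shown here, 5′ to 3′ on the plus strand, with the bases shared with the next gene in capitals: 46 shared with MT-ATP6 in MT-ATP8 (ENSG00000228253, chrM:8366-8572, 207 bases) and 7 shared with MT-ND4 in MT-ND4L (ENSG00000212907, chrM:10470-10766, 297 bases).
MT-ATP8: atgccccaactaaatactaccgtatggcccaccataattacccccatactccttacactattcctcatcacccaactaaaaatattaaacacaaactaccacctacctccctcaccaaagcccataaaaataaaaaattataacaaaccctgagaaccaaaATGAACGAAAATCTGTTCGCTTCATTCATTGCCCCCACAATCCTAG
MT-ND4L: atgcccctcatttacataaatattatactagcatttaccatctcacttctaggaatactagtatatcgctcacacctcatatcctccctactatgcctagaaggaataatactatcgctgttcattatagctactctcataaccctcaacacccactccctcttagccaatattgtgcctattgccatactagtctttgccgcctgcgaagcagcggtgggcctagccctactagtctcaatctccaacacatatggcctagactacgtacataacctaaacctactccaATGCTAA
MT-ND5 (ENSG00000198786, chrM:12337-14148) is long, with 1812 bases, and overlaps no other mitochondrial gene. Reads over overlapping genes may be given to either or to none, depending on settings of the counting that were not stated, so counts of MT-ATP8 and MT-ND4L are uncertain in level.

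Within the mitochondrial messages MT-ATP8, MT-ND4L and MT-ND5 varied 9.13-fold, 4.54-fold and 2.79-fold between their highest and lowest library, and the other 10 genes 1.48-fold (MT-ND4) to 2.56-fold (MT-ND6). Per 1000 counts of the 13 protein-coding genes, MT-ATP8 gave 4.86 on Day 0, 1.27 on Day 1 and 4.22 on Day 2. Over the later days sampled NP-ctrl gave 1.49, 1.45, 3.08 and 4.10. NP-IWP2 gave 2.11, 2.10, 1.88 and 2.84. The passaged arm gave 5.21 on Day 3 and 0.571 on Day 5, then 3.98 and 4.78. Both the highest and the lowest of the 15 values were thus in the passaged arm, on neighbouring days sampled.

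MT-ND4L, a small membrane subunit of complex I, ran from 2.16 per 1000 in the passaged arm on Day 5 to 9.82 in the passaged arm on Day 3. MT-ND5, another proton-pumping subunit of complex I, ran from 35.7 to 99.7 per 1000, with its extremes in the same 2 libraries. Day 2 gave 8.18 per 1000 for MT-ND4L and 70.8 for MT-ND5. For MT-ND5, NP-ctrl gave 39.3 and NP-IWP2 55.3 per 1000 on Day 3, and on Day 10 the values were 65.4, 64.3 and 56.6. In CPM, MT-ND5 was at 1566 in NP-ctrl and 1262 in the passaged arm on Day 3, a ratio of 0.806 (0.791 to 0.822). MT-ND4L was at 143 and 124 CPM, a ratio of 0.867 (0.814 to 0.924).

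Across the 15 libraries, log2 shares within the messages correlated at r = 0.92 for MT-ATP8 with MT-ND4L, 0.89 for MT-ND4L with MT-ND5 and 0.70 for MT-ATP8 with MT-ND5. The points share libraries, depth and a common denominator, so these values only describe the pattern. The values of 0.92 and 0.89 were the highest of all pairs, while other pairs lay above the 0.70 of MT-ATP8 with MT-ND5. These were MT-ND2 and MT-CYB at 0.81, MT-CO2 and MT-ATP6 at 0.77, MT-ATP6 and MT-ND4 at 0.72, and MT-CO2 and MT-CO3 at 0.71. MT-CO1 and MT-ATP6, at -0.95, lay furthest from 0. Of the 12 comparisons of arms, all 3 genes lay above the shift in 4, all 3 below it in 3, and they were mixed in 5. The largest opposite pair was between the passaged arm and NP-ctrl. There the 3 lay 1.73, 1.38 and 1.27 above the shift on Day 3 and 1.40, 1.23 and 0.55 below it on Day 5. From Day 2 to Day 3 the 3 lay -1.55, -1.23 and -0.89 from the shift in NP-ctrl. In NP-IWP2 they lay -0.99, -0.46 and -0.35 from it, and in the passaged arm 0.11, 0.07 and 0.30. From Day 3 to Day 5 they lay -3.14, -2.13 and -1.43 from it in the passaged arm, and 0, 0.48 and 0.39 in NP-ctrl. With the common shift taken over the other 10 protein-coding genes, an alternative chosen after these values were seen, the shift on Day 3 was -1.73 against NP-ctrl, with 5 genes leaving it in place of 8, and -1.85 against NP-IWP2 in place of -1.48. MT-ATP6, MT-CO3 and MT-TP were then the 3 that no longer left it against NP-ctrl.

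Neighbouring genes of 1 message parted in the same libraries. MT-ATP8 gave 14.4 counts per 100 of MT-ATP6 in the passaged arm on Day 3, where NP-ctrl gave 2.81 and NP-IWP2 4.11, and 1.44 in the passaged arm on Day 5. On Day 10 the values were 8.84, 6.79 and 11.0. MT-ND4L gave 10.3 counts per 100 of MT-ND4 in the passaged arm on Day 3, where NP-ctrl gave 3.53 and NP-IWP2 5.02, and 2.40 in the passaged arm on Day 5. A ratio within a message shows unequal change of its parts and does not say which part changed.

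**Figure D3:**
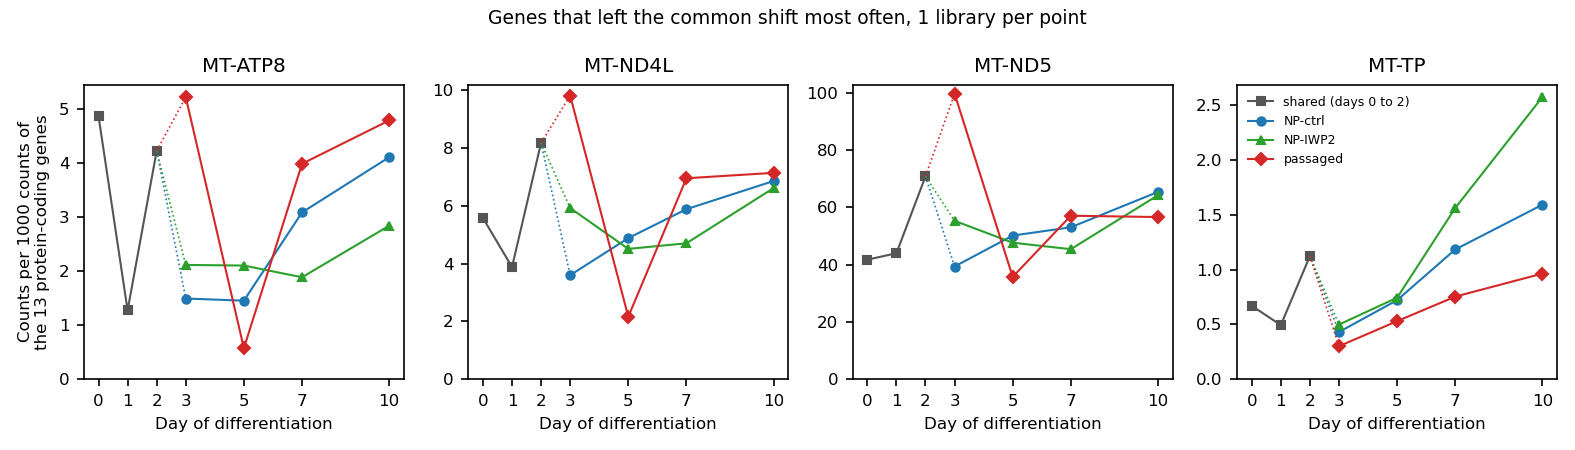
Counts of MT-ATP8, MT-ND4L, MT-ND5 and the transfer RNA gene MT-TP per 1000 counts of the 13 protein-coding genes (each axis from 0) against the day of differentiation, with 1 library per point and dotted lines from Day 2 to each arm. The first 3 genes peak in the passaged arm on Day 3 (5.21, 9.82 and 99.7) and are lowest there on Day 5, whereas MT-TP is lowest in the passaged arm on every day from Day 3 and highest in NP-IWP2 on Day 10 (2.58).

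The mitochondrial messages also differed in composition between days. From Day 1 to Day 2, 9 of 16 judged genes left the common shift of -0.34 (37.2% of all genes lay as far from their own median). MT-ATP8 had a ratio of 2.43 (2.27 to 2.60), MT-RNR2 of 1.77 (1.76 to 1.79) and MT-TP of 1.67 (1.49 to 1.87), whereas MT-CYB had 0.380 (0.375 to 0.385) and MT-ND2 0.528 (0.519 to 0.536). Both libraries are from before the arms divide. From Day 2 to Day 3 in the passaged arm all 13 protein-coding genes were lower by at least 1, where 5% of all genes were lower and 6.78% higher, with a common shift of -1.38. From Day 3 to Day 5 in the same arm 10 of 13 were higher by at least 1 (5.26% of all genes) and 1 was lower (6.67% of all genes). This was MT-ATP8, with a ratio of 0.393 (0.348 to 0.443), while MT-CYB had the highest ratio of the 13, 6.08 (5.94 to 6.24).

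Compared per length, as FPKM, the order of the protein-coding genes was stable at its top and bottom. MT-CO1 had the highest FPKM in all 15 libraries, from 3531 in the passaged arm on Day 3 to 22902 in the passaged arm on Day 10. MT-CO2 and MT-CO3 followed in every library and changed places between them. MT-ATP8 was lowest in 14 of the 15 libraries, from 125 in the passaged arm on Day 5 to 2017 in the passaged arm on Day 10, and MT-ND4L was lowest on Day 0 with 875. In the passaged arm on Day 3 MT-ATP8 (319) and MT-ND2 (321) were too close for the counts behind them to set their order.

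The 2 ribosomal RNAs form the cores of the small (MT-RNR1) and large (MT-RNR2) subunits of the mitochondrial ribosome and precede most of the messages on the same precursor. MT-RNR1 (chrM:648-1601) was at 582, 545 and 306 CPM on Day 3, a ratio of 0.526 (0.507 to 0.546) between the passaged arm and NP-ctrl that lay 0.65 above the common shift. MT-RNR2 (chrM:1671-3229) was at 7616, 7030 and 2286 CPM, a ratio of 0.300 (0.297 to 0.304) that stayed with the shift. On Day 10 MT-RNR1 was at 593, 752 and 1527 CPM, and MT-RNR2 at 4398, 9286 and 14167 CPM. Between the passaged arm and NP-ctrl both then lay within 0.19 of the shift, with ratios of 2.57 and 3.22.

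Summed, the ribosomal RNA genes gave 8.71 counts per 100 of the protein-coding genes on Day 0, 9.70 on Day 1 and 22.9 on Day 2. On Day 3 it was 20.6, 19.4 and 20.5, so the arms lay close together in this summed ratio while their mitochondrial shares did not. Most of the sum was MT-RNR2, with 191, 180 and 181 per 1000 protein-coding counts on Day 3. MT-RNR1 gave 14.6, 14.0 and 24.2 per 1000, so the 2 genes did not keep the same ratio to the messages. The summed ratio was between 11.0 and 13.7 on Day 5 and 15.5, 20.1 and 18.0 on Day 10. How ribosomal RNA was handled in library preparation was not given in the sources used here, so the level of these 2 genes against the messages may not carry over to the cells.

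Transfer RNAs, which carry amino acids to the ribosome, are the shortest transcripts of the genome, and 18 of the 22 genes had 0 counts in all 15 libraries. A count of 0 allows up to 0.148 to 0.226 CPM, for 3 counts at the highest and the lowest depth. MT-TF and MT-TY had at most 1 count in any library. Only MT-TP, the transfer RNA for proline, had over 100 counts in a library, and MT-TC, that for cysteine, was otherwise the only one judged. Both lie on the minus strand and are shown 5′ to 3′ on that strand, at chrM:15956-16023 and chrM:5761-5826, because they carry nearly all of the counts of this class.
MT-TP: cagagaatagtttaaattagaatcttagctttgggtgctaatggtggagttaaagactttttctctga
MT-TC: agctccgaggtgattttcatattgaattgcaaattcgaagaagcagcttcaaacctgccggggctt
Whether the counting used strand was not stated, so reads of the opposite strand over these genes cannot be told apart from theirs.

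MT-TP left the common shift in 8 of the 12 comparisons of arms, as often as MT-ATP8, but with another order of the arms. It had 529, 468 and 857 counts in the 3 common libraries. On Day 3 it had 278, 262 and 52 counts, and on Day 10 it had 689, 2040 and 1280. On Day 3 its ratio between the passaged arm and NP-ctrl was 0.222 (0.162 to 0.300), 0.59 below the shift. On Day 10 the ratio was 1.64 (1.50 to 1.81), 0.78 below the shift, and MT-TP was the 1 gene that left it. In NP-IWP2 on Day 10 it lay on the other side, 2.52-fold above NP-ctrl (2.31 to 2.75) and 0.75 above the shift. Between the passaged arm and NP-IWP2 on Day 10 it had a ratio of 0.653 (0.609 to 0.701), the only judged mitochondrial gene that was lower in the passaged arm. Per 1000 protein-coding counts it ran from 0.300 in the passaged arm on Day 3 to 2.58 in NP-IWP2 on Day 10, an 8.58-fold range.

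MT-TC had 6, 1 and 40 counts on Day 10, and 8 or fewer in every other library. Its ratio between the passaged arm and NP-ctrl was 5.90 (2.48 to 17.0), an interval that holds the common shift. Against the single count of NP-IWP2 the interval ran from 7.06 to 1685, above the common shift of that pair, which MT-TC therefore left on very few counts.

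The nuclear genome holds copies of mitochondrial genes that can take or lose their reads. The table listed 417 such copies, 133 with a count above 0, and 3 of them held 97.5% of their 79913 counts. All copies together gave between 0.439 (passaged arm, Day 5) and 1.20 (passaged arm, Day 3) counts per 100 mitochondrial counts, with a median of 0.636. The 3 lie within 1 cluster of copies on chromosome 1: MTATP6P1 (chr1:633696-634376), MTND2P28 (chr1:629640-630683) and MTCO1P12 (chr1:631074-632616). They were 98.5%, 98.2% and 98.6% identical to MT-ATP6, MT-ND2 and MT-CO1. A stretch of 60 bases of MT-ATP6 (chrM:8642-8701) and the same stretch of MTATP6P1 (chr1:633811-633870), both on the plus strand of hg38, shows how few bases, in capitals, tell them apart.
MT-ATP6: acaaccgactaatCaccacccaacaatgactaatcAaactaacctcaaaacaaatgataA
MTATP6P1: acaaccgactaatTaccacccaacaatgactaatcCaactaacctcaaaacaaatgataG
Over the whole gene they differ at 10 of 681 bases, and the longest identical run is 141 bases.

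The copies did not keep a fixed ratio to their parents in the passaged library of Day 3. MTATP6P1 gave between 4.65 and 14.1 counts per 100 of MT-ATP6 in the other 14 libraries and 31.3 in that one, where it fell to a ratio of 0.754 (0.712 to 0.798) against NP-ctrl and MT-ATP6 to 0.216. MTND2P28 went the other way, with 2.23 counts per 100 of MT-ND2 against 5.74 to 7.03 in the others, and its ratio against NP-ctrl was 0.0953 (0.0771 to 0.117) where that of MT-ND2 was 0.266. MTCO1P12 gave 0.446 counts per 100 of MT-CO1 there and 0.0877 to 0.273 in the others. With the counts of all copies added to their parents, MT-ATP6 on Day 3 had a log2 ratio of -1.94 between the passaged arm and NP-ctrl and no longer left the shift, and the number of genes leaving it was 7 in place of 8. Against NP-IWP2 on Day 3 MT-ATP6 had -1.85 and also no longer left the shift, then -1.48. Between the same arms on Day 10 MT-ND3 no longer left it, with 1.41 against a shift of 0.91, and between the passaged arm and NP-ctrl on Day 5 MT-TP did not, with -0.22 against 0.25. The mitochondrial share was then 4.83% in NP-ctrl and 1.54% in the passaged arm on Day 3, where it was 4.80% and 1.53% without the copies.

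**Figure D4:**
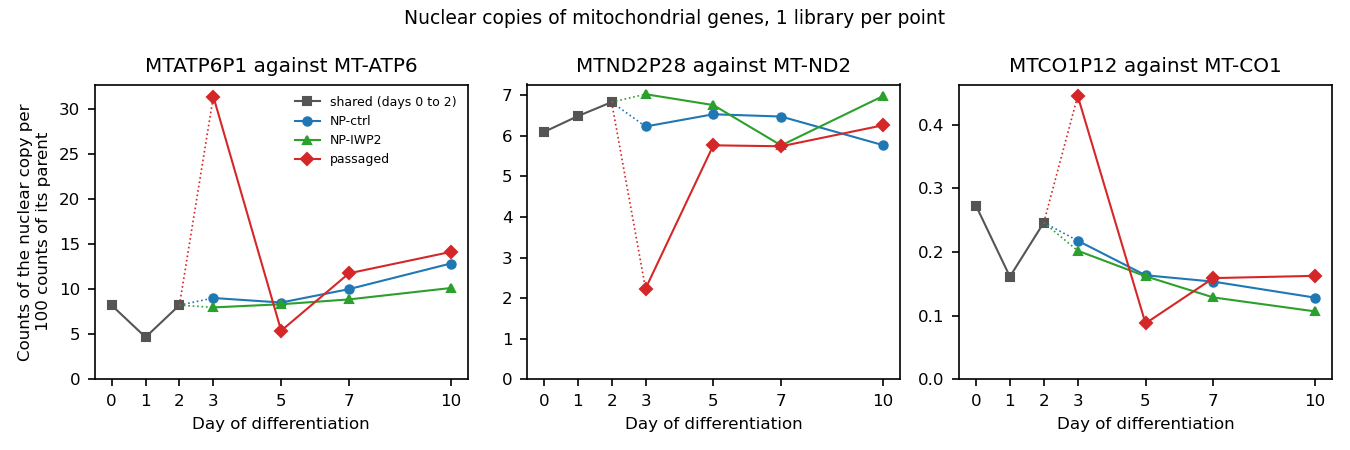
Counts of the nuclear copies MTATP6P1, MTND2P28 and MTCO1P12 per 100 counts of their mitochondrial parents (each axis from 0) against the day of differentiation, with 1 library per point. The passaged library of Day 3 stands apart in all 3 panels, highest for MTATP6P1 (31.3) and MTCO1P12 (0.446) and lowest for MTND2P28 (2.23).

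The partners of the mitochondrial subunits are encoded in the nucleus, and most of them differed by less than 1 on Day 3. Of 78 nuclear subunits of complexes I, III, IV and V, 77 were above the filter. 3 of the 77 were lower by at least 1 in the passaged arm than in NP-ctrl on Day 3 and none was higher, where 3.48% of all genes tested were lower and 5.02% higher, so this count lay near that of any genes. By any amount 60 were lower and 16 higher, with a median difference in log2(FPKM + 1) of -0.29 against 0.03 over all genes tested. The share of all genes lower or higher by any amount was not taken, so such counts have no background here or below. The 3 were NDUFB4 (66.8 FPKM in NP-ctrl and 21.8 in the passaged arm), UQCR10 (69.0 and 22.7) and ATP5MF (31.9 and 13.3), small accessory subunits of complexes I, III and V. The lower level was not particular to the passaged arm. Between NP-IWP2 and NP-ctrl on Day 3, 73 were lower and 2 higher, with a median of -0.41 against 0.06 over all genes tested. Between the passaged arm and NP-IWP2, 48 were higher and 28 lower, with a median of 0.14 against 0. By complex, mitochondrial and nuclear medians between the passaged arm and NP-ctrl on Day 3 were -1.52 and -0.15 for complex I. They were -1.70 and -0.14 for complex III, -2.10 and -0.51 for complex IV, and -1.03 and -0.32 for complex V.

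On Day 10 both sets were higher in the passaged arm. 41 of the 77 nuclear subunits were higher than in NP-ctrl by at least 1 and 1 was lower, where 5.67% of all genes tested were higher and 11.7% lower. Their median was 1.03 against -0.09 over all genes tested. Between NP-IWP2 and NP-ctrl 5 of the 77 were higher by at least 1 and 1 lower (3.71% and 5.64% of all genes), with a median of 0.37 against 0. Between the passaged arm and NP-IWP2 14 were higher and 1 lower (3.07% and 7.01% of all genes), with a median of 0.60 against -0.06. By complex, mitochondrial and nuclear medians between the passaged arm and NP-ctrl were 1.50 and 0.86 for complex I. They were 1.59 and 1.26 for complex III, 1.34 and 1.33 for complex IV, and 1.50 and 1.19 for complex V. The 1 lower gene was COX6B2, a testis form of a complex IV subunit, at 6.71, 1.09 and 0 FPKM. COX6A2, the heart and skeletal muscle form of another, was at 0.94, 6.27 and 11.0 FPKM. Complex II, which has no mitochondrially encoded subunit, had medians of -0.29 on Day 3 and 1.07 on Day 10 over its 4 genes, with SDHA at 2.40 FPKM in NP-ctrl and 10.4 in the passaged arm on Day 10.

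**Figure D5:**
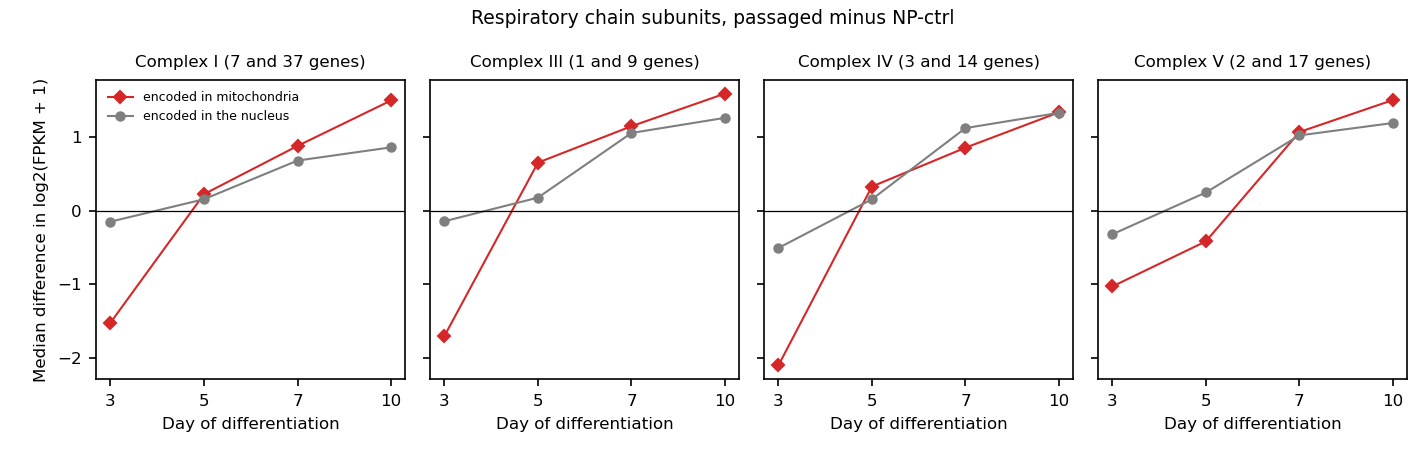
Median difference in log2(FPKM + 1) between the passaged arm and NP-ctrl for subunits of 4 complexes encoded in mitochondria (red diamonds) and in the nucleus (grey circles) on Day 3, Day 5, Day 7 and Day 10, with the number of genes of each kind above each panel and no error bars because each arm and day had 1 library. On Day 3 the mitochondrial median lies below the nuclear one in all 4 panels, and on Day 10 they are closest for complex IV (1.34 and 1.33).

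The genes that copy and transcribe mitochondrial DNA were compared in the same way. Of 16 such genes 0 passed 1 between the passaged arm and NP-ctrl on Day 3, where 5.02% of all genes tested were higher by this much and 3.48% lower. A count of 0 is near that background. By any amount 13 were higher, with a median of 0.25 against 0.03 over all genes tested. The share of all genes higher by any amount was not taken, and the TMM factors moved every gene by -0.12 in this pair. TFAM, which packages mitochondrial DNA and starts its transcription, was at 11.4, 10.9 and 18.7 FPKM, a ratio of 1.64 (1.51 to 1.79) between the passaged arm and NP-ctrl. POLRMT, the mitochondrial RNA polymerase, was at 19.0, 21.5 and 31.0 FPKM, a ratio of 1.63 (1.53 to 1.74). TWNK, the mitochondrial helicase, was at 4.76, 5.27 and 8.98 FPKM. On Day 10 TFAM was at 9.14, 14.4 and 14.1 FPKM and POLRMT at 11.6, 10.3 and 13.8 FPKM. MTERF2, of a family of factors that bind mitochondrial DNA, was the 1 of the 16 past 1 on Day 10 (5.67% of all genes were higher), at 12.6 FPKM in NP-ctrl and 27.8 in the passaged arm.

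Of 24 genes for processing, stability and decay of mitochondrial RNA, 23 were above the filter. 0 of the 23 passed 1 on Day 3 between the passaged arm and NP-ctrl, again near the background of 5.02% higher and 3.48% lower. By any amount 20 were higher, with a median of 0.33 against 0.03 over all genes tested, and the same limits hold for this count and median. LRPPRC, which stabilises mitochondrial messages, was at 8.19, 9.28 and 9.17 FPKM on Day 3. On Day 10, 2 of the 23 were higher by at least 1, near the 5.67% of all genes tested that were (11.7% were lower), with a list median of 0.38 against -0.09 over all genes tested. They were FASTKD1, of a family of mitochondrial RNA-binding proteins, at 6.59 FPKM in NP-ctrl and 16.8 in the passaged arm, and GRSF1, a protein of mitochondrial RNA granules, at 16.8 and 39.6 FPKM.

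Of 11 regulators of mitochondrial biogenesis, 10 were above the filter. PPRC1, a coactivator of the PGC-1 family, was the 1 past 1 on Day 3 (5.02% of all genes were higher), at 4.99, 7.97 and 15.5 FPKM, a ratio of 3.11 (2.80 to 3.46) between the passaged arm and NP-ctrl. PPARGC1A, which encodes PGC-1 alpha, was at 0.08 FPKM or below in all libraries of Day 2 and Day 3. On Day 10, 3 of 10 were higher by at least 1, where 5.67% of all genes tested were higher and 11.7% lower, with a list median of 0.58 against -0.09 over all genes tested. PPARGC1A was then at 2.47, 13.8 and 20.2 FPKM. ESRRG and ESRRA, nuclear receptors of genes for energy metabolism, were at 1.64, 7.49 and 16.2 FPKM and at 8.38, 13.4 and 22.1 FPKM. PPRC1 was at 11.0, 5.52 and 6.59 FPKM on Day 10, lower in the passaged arm than in NP-ctrl with a ratio of 0.601 (0.541 to 0.666), so the members of this list did not share 1 order of the arms.

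On Day 10 the arms also differed in markers of cell types. The 12 cardiomyocyte markers summed to 3702, 12195 and 25462 CPM, none of them at 0, and all 12 were higher by at least 1 in the passaged arm than in NP-ctrl, where 5.67% of all genes tested were. MYH6, a cardiac myosin heavy chain, was at 123, 445 and 1013 FPKM. The 15 markers of other lineages (liver, mesenchyme, epicardium, endothelium and gut) summed to 37083, 11146 and 1393 CPM, with APOA2 and CDX2 at 0 in the passaged arm and 12 of 15 lower by at least 1 there than in NP-ctrl, where 11.7% of all genes tested were. On Day 3 the cardiomyocyte markers summed to 170, 211 and 317 CPM, with MYBPC3 at 0 in NP-ctrl and MYH7 at 0 in the passaged arm. The sum did not stand for its members there: 6 of the 12 were higher and 6 lower in the passaged arm than in NP-ctrl, with 1 higher and 2 lower by at least 1 (5.02% and 3.48% of all genes). ACTC1, the cardiac actin, was at 8.14, 5.60 and 1.91 FPKM, and TNNC1, a cardiac troponin, at 3.18, 0.91 and 9.54 FPKM. The other lineages summed to 1179, 871 and 1558 CPM on Day 3, with AFP, TTR and WT1 at 0 in all 3 arms. This sum did not stand for all its members either. Between the passaged arm and NP-ctrl 9 of the 15 were higher and 2 lower, with a median of 0.04 against 0.03 over all genes tested. By at least 1, 4 were higher and 2 lower (5.02% and 3.48% of all genes). COL1A1 was at 41.1, 25.5 and 102 FPKM, and KDR at 104, 92.9 and 40.7 FPKM. Both sums were thus highest on Day 3 in the passaged arm, where the mitochondrial share was lowest. The part of these cell types in the mitochondrial values was not tested.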

How the data were processed

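RNA of H1 cells was sequenced by the authors in 15 libraries, with 1 library per arm and day. Per the labels, reads were trimmed with cutadapt (version 1.9.1), aligned with HISAT2 (version 2.0.1) to hg38 and counted with HTSeq (version 0.6.1). DESeq2 is also named there. A kit for long reads is given for library preparation, whereas these tools are for short reads, which leaves values per length in doubt. Strand and overlap settings were not given in the sources used here.

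The authors deposited whole-number counts and FPKM. The deposited FPKM were recomputed from counts, length and library total to within 0.005. No other column was used. Symbols were matched by gene ID (37 of 37). Sequences came from the hg38 reference.

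Here counts were scaled by library totals. Shares carry Wilson and ratios exact Clopper-Pearson 95% intervals (Python 3.11.15, scipy 1.17.1), both from the unchanged counts. For the ratio itself, counts of 3 or fewer were set to 3. With 1 library per group no p-value was computed. Genes reaching an FPKM of 1 in any library were compared on log2(FPKM + 1), which understates changes of low genes. The interval and a call at a log2 ratio of 1 were tried on simulated counts that had no spread between cultures. The rule for leaving the common shift was not tried on them. Total counts ran from 13254723 to 20250115, which sets the counting error.

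All protein-coding and ribosomal RNA genes are named, as are transfer RNA genes with at least 100 counts in 1 library or leaving the shift on Day 3 or Day 10, TFAM, POLRMT, LRPPRC, TWNK and PPARGC1A, at most 5 others per list that changed by at least 1 on those days, and 3 nuclear copies. Not all of those eligible are printed. Members, lists and rules were chosen with earlier results of these data known. Alternatives were TMM factors (edgeR 4.0.16, R 4.3.3), size factors (DESeq2 1.42.0), TPM, other denominators, pseudocounts, filters and thresholds, and nuclear copies added.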

Additional observations from a re-analysis of the deposited data

Results flagged for a closer look

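Some differences between the passaged arm and another arm had opposite signs on Day 3 and Day 10. Each rests on 1 library per arm and day, and the difference between the days was not tested. The common shift of the 13 protein-coding genes was -1.58 and 1.50 on log2 against NP-ctrl on Day 3 and Day 10, and -1.48 and 0.87 against NP-IWP2. For the ribosomal RNA genes against NP-ctrl, the log2 ratio was -0.93 and 1.36 for MT-RNR1, and -1.74 and 1.69 for MT-RNR2. For the transfer RNA gene MT-TP it was -2.17 and 0.72. The comparisons with NP-ctrl share its libraries.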

How the results depend on the processing

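No paired analysis was possible because each arm and day had 1 library and no result comes from a test, so leaving out a replicate was not possible either. Intervals reflect depth only, which limited the transfer RNA genes. Apart from the changes of sign named below, every common shift on Day 3 and Day 10 kept its direction under the scalings tried. Where a value moved, the cause was not tested.

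Shares in NP-ctrl, NP-IWP2 and the passaged arm were 4.13%, 4.06% and 1.30% on Day 3 and 3.33%, 5.20% and 9.11% on Day 10 over counts of protein-coding genes, 4.02%, 3.93%, 1.27%, 3.24%, 5.06% and 8.88% without ribosomal RNA genes, and 4.83%, 4.69%, 1.54%, 3.75%, 6.05% and 10.39% with nuclear copies.

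The common shift on Day 3 (passaged against NP-ctrl, NP-IWP2 against NP-ctrl, passaged against NP-IWP2) was -1.70, -0.18 and -1.45 with TMM, -1.71, -0.16 and -1.47 with size factors of DESeq2, and -1.30, 0.10 and -1.32 with TPM, where NP-IWP2 against NP-ctrl changed sign. TPM also turned it on Day 5, to -0.0071. Without MT-ATP8, MT-ND4L and MT-ND5, chosen after seeing the data, it was -1.73, -0.053 and -1.85 on Day 3, and 5 and 3 genes left it in the comparisons with NP-ctrl. On Day 10, passaged against NP-ctrl and against NP-IWP2, it was 1.74 and 1.08 with TMM, 1.69 and 1.04 with size factors, and 1.21 and 0.64 with TPM. Counts outside the mitochondrial genome gave -1.53 for passaged against NP-IWP2 on Day 3, and 1.60 and 0.93 on Day 10. Protein-coding members past 1 between passaged and NP-IWP2 on Day 10 were 8 with TMM, 8 with size factors and 2 with TPM.

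At a threshold of 1, genes leaving the shift in these 3 comparisons were 3, 0 and 1 on Day 3 and 0, 0 and 2 on Day 10. With the shift from summed counts, NP-IWP2 against NP-ctrl had 2 on each of these days. All genes changed by at least 1 were 588, 94 and 495 on Day 3 and 1351, 530 and 739 on Day 10 at a mean FPKM of at least 5, and 4830, 2975, 4523, 6979, 4706 and 5276 with a pseudocount of 0.1, against 1801, 880, 1844, 3692, 1983 and 2136. The filter on the mean also leaves fewer genes to count, so its counts do not show how the share of changed genes moved.

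With FPKM scaled by counts outside the mitochondrial genome, Day 10 medians were 0.96, 1.36, 1.43 and 1.29 for nuclear subunits of complexes I, III, IV and V, 1.13 for these together, 1.17 for complex II and 2.84 for cardiomyocyte markers. A pseudocount of 0.1 gave 0.97 for regulators of biogenesis and -5.90 for other lineages on Day 10, and 0.35 for other lineages on Day 3.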

Other observations

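MT-ND6 and MT-TP are the 2 genes of the minus strand with over 100 counts in every arm on Day 10. From Day 7 to Day 10 in NP-IWP2, MT-ND6 had a ratio of 1.76 (1.72 to 1.80) and MT-TP of 1.75 (1.62 to 1.88), at 0.71 and 0.70 above the common shift of 0.10. MT-ATP8, on the plus strand, also left this shift, at 0.57 above it, and MT-ND5 and MT-ND4L lay 0.48 and 0.47 above. MT-ND6 also had the highest log2 ratio of the 13 protein-coding genes over these days in the other arms. It was 0.60 in NP-ctrl (shift 0.18) and 1.18 in the passaged arm (shift 0.70), and MT-ND6 left neither shift. Between NP-IWP2 and NP-ctrl on Day 10 MT-ND6 lay 0.09 from the shift and MT-TP 0.75. Across libraries the share of MT-ND6 within the messages correlated at r = 0.60 with MT-ND5 and at -0.25 with MT-CYB, its neighbours on the plus strand, and at 0.57 with MT-ND4L and 0.52 with MT-ATP8, over 15 libraries that share depth and denominator.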
